A study of Mus musculus with 16 samples.

Results

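The 9 inhibitor-treated mouse blastocyst samples were compared, as 1 body, with the 3 control samples; they are 9 of the 12 samples measured, chosen by their labels. They comprised 3 samples treated with 20 µM SB203580, an inhibitor of p38 MAP kinases, 3 with 25 µM SP600125, an inhibitor of JNK, and 3 with 20 µM U0126, which inhibits MEK, the activator of ERK. The controls were titled WT, with no treatment named. Their solvent, the strain, the age of the embryos, the length of treatment and the number of embryos pooled per sample are not stated in the labels, and nothing says that the replicates were separate cultures, so the errors below measure the spread between these samples. Replicate 1 of each group was labelled by a small sample assay and read on a pair of arrays (430A and 430B), and replicates 2 and 3 by a two-cycle assay on 430 2.0 arrays. All differences were therefore taken between arrays of 1 type. The comparison asks what the 3 treatments changed in common, and how evenly, with the mean of the 3 inhibitor changes set against control so that each inhibitor had equal weight.

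ERK, JNK and p38 are the end kinases of parallel phosphorylation cascades that carry signals from growth factor receptors and stress to transcription factors. In the blastocyst, an outer trophectoderm pumps fluid into the cavity, and the inner cell mass sorts into epiblast, which forms the fetus, and primitive endoderm, which forms the parietal and visceral endoderm of the yolk sacs. FGF4 made by the epiblast and ERK activity in its neighbours are known to promote the primitive endoderm fate. Primitive endoderm cells secrete the laminin and collagen IV of a basement membrane and carry endocytic receptors of the absorptive visceral endoderm.

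The 12 samples were read on 16 arrays. The median signal of the 430 2.0 arrays was 61.1 and 65.7 in the controls and lay between 61.5 and 83.0 in the treated samples, with the highest values after U0126 (77.7 and 83.0). Signals correlated between a control and a treated sample on the same array type at 0.94 to 0.965 over probe sets (15 pairs), and between samples of different inhibitors at 0.932 to 0.961 (15 pairs). Actin signal at the 3' end over that at the 5' end, which rises as RNA degrades, was 1.58 and 1.70 in the controls and 1.62 to 1.75 in the treated samples on 430 2.0 arrays. On the 430A arrays the ratio spread more, at 2.47 in the control, 2.81 after SB203580, 3.66 after SP600125 and 1.62 after U0126. The same ratio for Gapdh was 4.80 and 3.05 in control replicates 2 and 3, 3.54 to 3.95 in the treated samples of replicate 2 and 2.84 to 3.79 in those of replicate 3. The 430A array of the control gave 4.03 and those of the treated samples 2.61 to 3.46, so the control was highest in 2 of 3 replicates. The part of these ratios in the results was not tested. Blastocyst markers were bright: the trophectoderm factor Cdx2 read 3740.4 and 5308.8 in the 430 2.0 controls, and the inner cell mass factor Pou5f1 read 3363.1 and 3620.8.

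The calls for the mean of the 3 inhibitor changes were few and mostly downward. Such a call does not show a change after each inhibitor. Over all 12614 genes the mean change was positive in 6539 and negative in 6075. Among 27022 probe sets tested, 56 (0.207%) passed an adjusted p under 0.05 for the pooled change (limma, moderated test, Benjamini-Hochberg over all probe sets): 14 higher (0.0518%) and 42 lower (0.155%). An unadjusted p under 0.05 was reached by 2151 probe sets (7.96%). Taken 1 at a time in the same fit, SB203580 had 105 calls (0.389%), SP600125 160 (0.592%) and U0126 121 (0.448%). The called probe sets named 47 genes, 12 higher and 35 lower, and 3 probe sets named no single gene in the annotation used. The median absolute change of the 47 genes was 0.96 on the log2 scale, on which 1 is a 2-fold change of signal plus a constant of 12.6. The median signed change over all tested probe sets was 0.01. Rises and falls cancel in that value, so it is not a typical size of change to set beside 0.96. The lower genes included basement membrane and endocytic genes of primitive endoderm, 3 enzymes of cholesterol synthesis, and secreted modulators of Wnt and BMP signals. The higher genes included the keratin Krt19 and both Cpt1a and Slc25a20, which carry fatty acids into mitochondria.

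The count leaned on the 3 control samples, which all 9 treated samples share. Without control replicate 1 the pooled test called 0 probe sets, with 1871 at an unadjusted p under 0.05. It called 10 without control replicate 2, 20 without control replicate 3 and 30 without SP600125 replicate 3. With any other treated sample left out the count was 38 to 67. Of the 47 genes, 24 kept their call in each of the 9 omissions of a treated sample, and 5 kept it both without control replicate 2 and without control replicate 3 (Ap5z1, Klk7, Amn, Foxq1 and Csta1). On the 430 2.0 arrays alone 7 probe sets were called (0.0259%), 4 of them among the 56, and 1794 (6.64%) had an unadjusted p under 0.05. Of those 7, 6 had the same sign in the replicate 1 arrays (85.7%), as did 92 of the 111 probe sets with an unadjusted p under 0.001 on the 430 2.0 arrays (82.9%) and 53.5% of all tested probe sets.

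How even the change was among the inhibitors was measured by a moderated F test of the differences between the 3 treated groups. These differences use no control sample, but the spread they are set against is estimated from all 12 samples. Over all tested probe sets 830 (3.07%) passed the F test and 4678 (17.3%) had an unadjusted p under 0.05. The adjusted count fell to 549 without SP600125 replicate 2 and 521 without SP600125 replicate 3. Of the 47 genes called in the pooled comparison, 20 passed the F test as well and 27 did not. A p that misses the threshold does not show equal changes, so the ratio of the smallest to the largest inhibitor change was also taken. It was 0.5 or more in 18 genes, 5 higher and 13 lower, under 0.25 in 7, and the smallest change had the opposite sign in 2 of those (Glipr1 and Rfx4). Its median was 0.45. In 42 of the 47 genes all 9 treated samples lay on 1 side of the control mean of their array type, and in 38 all treated samples lay beyond all controls of that type, which held for 1.11% of all tested probe sets upward and 1.12% downward. Over all genes, on their brightest probe set, it held for 1.18% upward and 1.28% downward. The 47 genes were picked by a test on these same samples. Both counts therefore follow largely from that choice and are not separate evidence of a change. The largest of the 3 changes was that of SB203580 in 20 genes, SP600125 in 17 and U0126 in 10. For the 35 lower genes the median change was -0.90 for SB203580, -1.26 for SP600125 and -0.84 for U0126, and for the 12 higher genes it was 0.95, 0.93 and 0.91. These 3 changes are side by side but share the controls, so their likeness is not independent evidence.

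**Figure D1:**
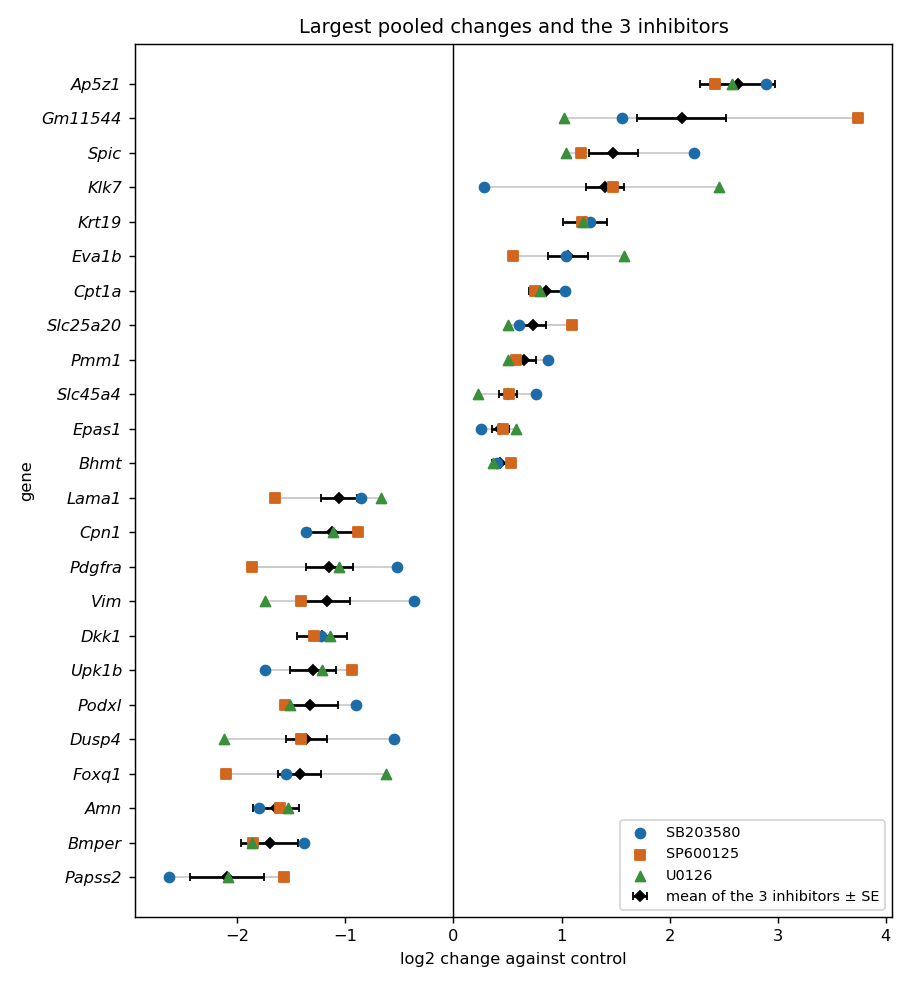
The horizontal axis is the log2 change against control and each row is a gene, for the 12 called rises and the 12 largest called falls. Black diamonds are the mean of the 3 inhibitor changes with its standard error, and coloured points are SB203580, SP600125 and U0126; Krt19, Dkk1 and Amn have their 3 points close together, while those of Gm11544 and Klk7 lie far apart.

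When the 9 treated samples were fitted as 1 group, so that differences between inhibitors counted as spread, 3 probe sets stayed called, those of Amn, Csta1 and Ap5z1 (adjusted p = 0.00645 each, limma). Amn encodes amnionless, the partner of cubilin in the endocytic receptor of visceral endoderm and kidney. Its signal in the controls was 979.7 on the replicate 1 array and 995.4 and 1038.2 on 430 2.0 arrays. It read 134.0, 476.9 and 336.8 in SB203580 replicates 1 to 3, 197.7, 403.6 and 416.7 after SP600125, and 233.5, 432.7 and 389.0 after U0126. Every treated sample was under the controls, and the inhibitors overlapped each other. The pooled change was -1.64 ± 0.21 (SE, n = 9 against 3; adjusted p = 0.00589), made of -1.80, -1.60 and -1.53 for SB203580, SP600125 and U0126 (F test adjusted p = 0.801). The 3 pairwise differences between inhibitors had 95% intervals within -0.82 to 0.48. Within array types the pooled change was -2.34 in replicate 1 and -1.29 in replicates 2 and 3, and the call was kept in 11 of 12 omissions of a sample.

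Csta1, a stefin that inhibits cysteine proteases, fell by 0.99 ± 0.11 on the log2 scale (adjusted p = 0.00167), the smallest adjusted p of the named genes. Its signal was 15132.2, 9059.3 and 9178.9 in control replicates 1 to 3. It read 7295.5, 5154.0 and 3850.6 after SB203580, 7523.5, 5631.9 and 5463.2 after SP600125, and 7638.1, 3476.3 and 4475.1 after U0126. The treated samples lay well under the controls of their array type, and the changes per inhibitor were -1.04, -0.81 and -1.13 (F test adjusted p = 0.346). The replicate 1 value (-1.01) and the value of replicates 2 and 3 (-0.98) were close. The pairwise differences had 95% intervals within -0.51 to 0.60, and that of SP600125 minus U0126 was positive throughout (0.039 to 0.60).

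Ap5z1, a subunit of the AP-5 adaptor complex of endosomes, had the largest rise, 2.63 ± 0.35 (adjusted p = 0.00589), with 2.89, 2.42 and 2.58 for the 3 inhibitors (F test adjusted p = 0.786). The probe set read 78.0, 9.9 and 12.9 in the controls and 61.0 to 166.7 in the 6 treated samples on 430 2.0 arrays, so the 430 2.0 controls were near the added constant. In replicate 1 it read 1681.2, 850.4 and 734.6 after SB203580, SP600125 and U0126. With a constant of 1 the change was 3.21, and with 100 it was 1.44. The gene has 5 tested probe sets and the other 4 were not called, with pooled changes of -0.33 to 0.42. The brightest of these gave 0.42 ± 0.13 (adjusted p = 0.317), with all treated samples above all controls of their array type. The size of the rise is therefore a measurement of the called probe set and not of the gene's other probe sets.

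Bmper, Dkk1 and Papss2 were among the other falls with a smallest to largest ratio of 0.5 or more. Bmper, a secreted regulator of BMP, read 1904.9, 324.6 and 353.1 in the controls and 410.0 to 549.0 in the treated replicate 1 arrays. On the 430 2.0 arrays it read 93.4 and 211.2 after SB203580, 67.4 and 112.6 after SP600125, and 69.5 and 129.9 after U0126. No treated sample reached its controls, and the pooled change was -1.70 ± 0.26 (adjusted p = 0.0109). The inhibitors gave -1.38, -1.86 and -1.86, with pairwise 95% intervals within -0.68 to 1.16, and the call was kept in 9 of 12 omissions.

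Dkk1, a secreted Wnt antagonist, read 855.3, 1482.0 and 1370.9 in the controls, 332.5, 592.8 and 662.0 after SB203580, and 359.3, 571.4 and 553.2 after SP600125. With U0126 it read 391.0, 356.5 and 1116.9, so that replicate 3 was nearest to the controls. The pooled change was -1.22 ± 0.23 (adjusted p = 0.0349), with -1.22, -1.29 and -1.14 for the inhibitors (F test adjusted p = 0.945). The gene's other, dimmer probe set was also called (-1.68 ± 0.23) but was less even. It gave -1.865, -2.019 and -1.144 (F test adjusted p = 0.15). There the 95% intervals of SB203580 minus U0126 (-1.305 to -0.138) and SP600125 minus U0126 (-1.459 to -0.292) were negative throughout. Neither difference passed the test over all probe sets (adjusted p = 0.249 and 0.103). On the brighter probe set the call was lost in 8 of the 12 omissions, with changes of -1.36 to -1.07 over all 12.

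Papss2, which makes the sulphate donor for proteoglycans and hormones, had the largest fall, -2.10 ± 0.34 (adjusted p = 0.0147). Its signal was 146.1, 337.3 and 388.2 in the controls and no more than 51.3 in the treated replicate 1 arrays. The 430 2.0 arrays gave 21.1 and 75.3 after SB203580, 99.9 and 106.8 after SP600125, and 80.9 and 51.4 after U0126. The treated samples were dim and apart from the controls, so the size of the change depended on the added constant and was -1.25 with a constant of 100. A second probe set of the gene was not called (-0.42 ± 0.43). Podxl, an apical sialomucin (-1.33 ± 0.25), Cpn1, a carboxypeptidase (-1.12 ± 0.20), and the small heat shock protein gene Cryab (-1.0 ± 0.15) also fell, each with a smallest to largest ratio of 0.5 or more. The other, dimmer probe set of Cpn1 was not called (-0.10 ± 0.49, adjusted p = 0.985). Upk1b, a tetraspanin of urothelial plaques, fell on 2 of its 4 tested probe sets (-1.30 ± 0.22 on the brighter of them), while the gene's brightest probe set gave -0.47 ± 0.21 (adjusted p = 0.60). Of the uroplakin list, chosen after the values were seen, 4 genes were tested and their median change was -0.16.

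Among the rises, Krt19, a keratin of simple epithelia such as trophectoderm, was the most even of the 47 genes. It read 114.8, 214.2 and 180.8 in the controls, 244.6, 438.3 and 652.9 after SB203580, 186.2, 636.3 and 496.1 after SP600125, and 221.9, 476.9 and 571.8 after U0126. All treated samples exceeded all controls of their array type. The pooled change was 1.21 ± 0.20 (adjusted p = 0.0167), with 1.26, 1.19 and 1.20 for the inhibitors and pairwise 95% intervals within -0.54 to 0.61. The call was kept in each omission of a treated sample and lost in each omission of a control (changes of 1.08 to 1.40).

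Cpt1a, the rate-limiting step of fatty acid entry into mitochondria, rose by 0.86 ± 0.16 (adjusted p = 0.0321). It read 476.4, 337.0 and 326.9 in the controls, 819.2, 634.3 and 901.6 after SB203580, 756.5, 605.1 and 569.2 after SP600125, and 659.9, 750.9 and 581.1 after U0126. No treated sample came down to its controls, and the inhibitor changes were 1.03, 0.75 and 0.80 (F test adjusted p = 0.652). The call was kept in 4 of 12 omissions. Cpt1a was called on 1 of its 3 tested probe sets, and all 3 had a positive change. Slc25a20, the carnitine-acylcarnitine carrier that acts after Cpt1a, rose by 0.74 ± 0.12 (adjusted p = 0.0164), with 0.61, 1.10 and 0.50. It was called on 1 of its 2 tested probe sets, both with a positive change. Of 18 tested genes of the carnitine shuttle and fatty acid oxidation, a list chosen after these calls were seen, these 2 were the called ones, against 0.0872% of all genes higher, and the median change of the 18 was 0.08.

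Smaller even rises were those of Bhmt, which remethylates homocysteine (0.43 ± 0.07), and Pmm1, a phosphomannomutase (0.65 ± 0.11). Epas1, a hypoxia-inducible factor subunit, rose by 0.43 ± 0.08, with 0.26, 0.46 and 0.58, while the gene's other probe set was not called (0.23 ± 0.14, adjusted p = 0.757) and gave 0.38, 0.48 and -0.18.

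**Figure D2:**
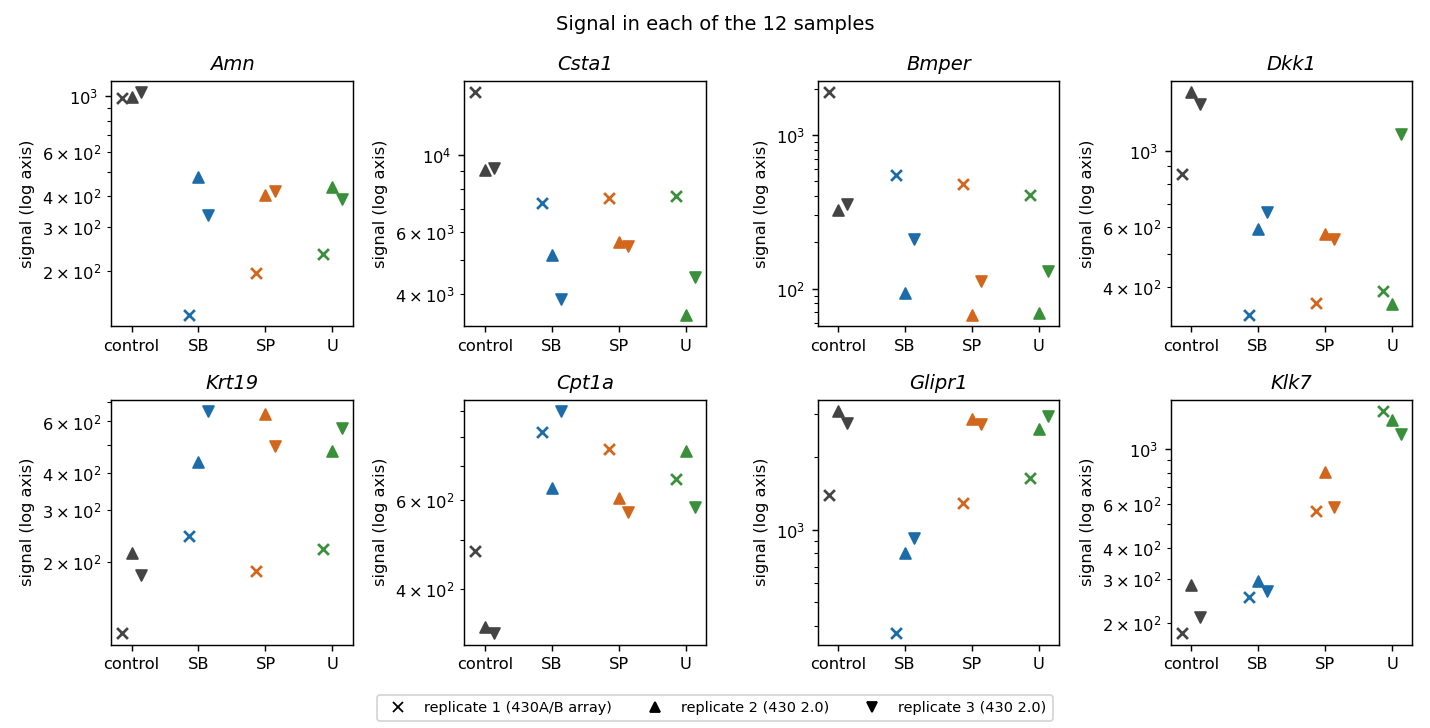
Each panel gives a gene's signal on a log axis in the control, SB203580 (SB), SP600125 (SP) and U0126 (U) samples, with crosses for replicate 1 and triangles for replicates 2 and 3, which are on another array type. Within an array type the treated samples lie below the controls for Amn, Csta1, Bmper and Dkk1 and above them for Krt19 and Cpt1a, while Glipr1 is low after SB203580 alone and Klk7 rises in steps from SB203580 to U0126.

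Primitive endoderm markers were the group with the most called members. Of 24 tested genes, 7 were lower on their brightest probe set (Amn, Lama1, Sparc, Col4a2, Col4a1, Sox17 and Serpinh1), against 0.246% of all 12614 genes, and none was higher. Pdgfra was lower on a dimmer probe set (-1.15 ± 0.22) and not called on its brightest (-0.41 ± 0.13, adjusted p = 0.305). The median pooled change of the 24 was -0.79 beside 0.01 for all genes, and 22 of the 24 were negative, as were 6075 of all 12614 genes. In 10 of them all treated samples were below all controls of their array type, against 1.28% of all genes. The median was -0.52 for SB203580, -1.20 for SP600125 and -0.54 for U0126, and it was -0.42 in replicate 1 and -0.75 in replicates 2 and 3. The list's direction was already known from these samples.

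Lama1, the laminin alpha chain of the early basement membrane, read 1927.8, 2500.8 and 3224.4 in the controls and 785.4, 1566.6 and 2116.2 after SB203580. It read 428.0, 904.7 and 1259.3 after SP600125, the lowest on each array type, and 1212.4, 1536.1 and 2041.0 after U0126. The pooled change was -1.06 ± 0.17 (adjusted p = 0.0133), with -0.85, -1.65 and -0.67 (F test adjusted p = 0.0223). Sparc, a matrix glycoprotein of parietal endoderm, read 3504.3, 3421.3 and 3305.0 in the controls and 1142.6 to 2619.5 in the treated samples, with a pooled change of -0.87 ± 0.13 (adjusted p = 0.0109). The collagen IV chains Col4a1 and Col4a2 changed by -0.79 ± 0.13 and -0.87 ± 0.14. For Col4a2 the inhibitors gave -0.68, -1.47 and -0.47 and differed (F test adjusted p = 0.00584), and so did Col4a1 (-0.52, -1.33 and -0.53, F test adjusted p = 0.00928). The other probe set of Col4a1 was not called (-0.29 ± 0.20, adjusted p = 0.795) and gave -0.10, -0.94 and 0.16. Col4a2 read 1106.6, 1109.6 and 982.7 in the controls, 630.2 to 691.2 after SB203580, 350.0 to 396.1 after SP600125, and 671.9 to 894.8 after U0126. Sox17, an endoderm transcription factor (-0.96 ± 0.17), and Serpinh1, the collagen chaperone (-0.98 ± 0.18), also had their lowest value after SP600125 (-1.39 and -1.48). Col4a1, Sox17 and Serpinh1 were named after their values were seen.

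The rest of the list was not called. Cubn, the receptor that amnionless carries to the surface, gave -1.50 ± 0.31 (adjusted p = 0.0575), Srgn -1.22 ± 0.25 (adjusted p = 0.0554) and Sox7 -1.05 ± 0.23 (adjusted p = 0.0771). Gata6, the factor that starts the lineage, differed among the inhibitors, with 0.02, 0.21 and -0.60 (F test adjusted p = 0.00193) and a pooled change of -0.12 ± 0.10. It read 2719.6, 4895.0 and 5088.3 in the controls, 2994.9, 4817.6 and 4920.5 after SB203580, 3815.4, 5278.8 and 5178.5 after SP600125, and 2214.7, 2743.8 and 3172.6 after U0126. It was lowest after U0126 on each array type. Apoe and Cited1 were the positive members (0.17 ± 0.14 and 0.21 ± 0.43). The summed signal of the list's 24 genes was 78044.8 and 73913.6 in the 430 2.0 controls and 53495.5 to 66767.4 in the treated samples, and in replicate 1 it was 43137.1 in the control and 32424.9 to 33665.1 after treatment, so the groups did not overlap on either array type. Dab2 (14735.4 and 14571.2 in the 430 2.0 controls) and Fgfr2 (3892.2 and 3578.9) are in this sum and are also on the trophectoderm list. In these whole-embryo samples, fewer primitive endoderm cells and less RNA per cell cannot be told apart.

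The promoters of called primitive endoderm genes are shown because the promoter windows of the collagen IV pair overlap. RefSeq sequences (build GRCm38.p6, 250 bases before to 50 after the start) matched 6 of the 8 genes called on any probe set. Col4a1 is at chr8:11312777-11313076 on the minus strand and Col4a2 at chr8:11312555-11312854 on the plus strand, so the genes start head to head and 78 bases of the windows are common to both. Amn is at chr12:111270846-111271145 on the plus strand. Capitals mark CCAAT boxes (CCAAT, or ATTGG where the box is on the other strand).
Col4a1: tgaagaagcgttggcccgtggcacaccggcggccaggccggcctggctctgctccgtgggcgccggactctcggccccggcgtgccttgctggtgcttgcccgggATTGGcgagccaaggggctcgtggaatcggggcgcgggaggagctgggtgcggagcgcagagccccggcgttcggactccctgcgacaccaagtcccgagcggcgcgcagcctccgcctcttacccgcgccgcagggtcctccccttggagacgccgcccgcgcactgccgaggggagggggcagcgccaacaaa
Col4a2: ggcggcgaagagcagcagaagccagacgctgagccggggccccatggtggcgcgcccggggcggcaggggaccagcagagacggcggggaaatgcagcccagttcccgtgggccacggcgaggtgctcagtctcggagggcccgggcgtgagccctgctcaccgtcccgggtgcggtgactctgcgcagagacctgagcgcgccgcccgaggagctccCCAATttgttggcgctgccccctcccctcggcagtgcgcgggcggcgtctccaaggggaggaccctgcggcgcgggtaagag
Amn: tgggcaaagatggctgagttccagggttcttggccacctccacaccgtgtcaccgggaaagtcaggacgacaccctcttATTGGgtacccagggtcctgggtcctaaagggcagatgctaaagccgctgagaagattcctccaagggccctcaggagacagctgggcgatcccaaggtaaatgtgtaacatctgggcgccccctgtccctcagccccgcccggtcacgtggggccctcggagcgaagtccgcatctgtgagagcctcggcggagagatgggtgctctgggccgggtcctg
A CCAAT box was in 3 of the 6 promoters, against 37.4% of 32851 mouse promoters of the same length, and a GC box (GGGCGG, either strand) in 4, against 35.7%. An E-box (CACGTG) was in 1, against 7.15%, and an AP-1 site (TGANTCA), the motif bound by Jun and Fos, in none, against 7.81%. These are letter matches in short windows and say nothing of what binds there. The 1 GC box of Col4a1 lies in the bases that both collagen windows share, so it was also found in the Col4a2 window.

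Cholesterol synthesis genes were lower as well, but less evenly. Of 19 tested genes, 3 were lower (Nsdhl, Fdft1 and Cyp51) against 0.246% of all genes, and 18 of the 19 had a negative change. The median was -0.42, with -0.51 for SB203580, -0.54 for SP600125 and -0.16 for U0126. Nsdhl, which removes a methyl group from the sterol nucleus, was even: it read 2060.6, 3885.3 and 3984.3 in the controls, 1298.6, 1978.3 and 2251.4 after SB203580, 1522.1, 2260.4 and 2636.6 after SP600125, and 1223.2, 2367.3 and 2335.5 after U0126. Every treated sample was under the controls of its array type. The pooled change was -0.72 ± 0.10 (adjusted p = 0.00601), with -0.82, -0.60 and -0.74 and pairwise 95% intervals within -0.48 to 0.40.

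Fdft1, squalene synthase, and Cyp51, the lanosterol demethylase, fell after SB203580 and SP600125 and differed from U0126. Fdft1 read 1922.2, 8217.3 and 8922.5 in the controls, 896.1, 3942.5 and 4312.4 after SB203580, 1042.3, 4805.2 and 5503.3 after SP600125, and 2001.1, 6569.5 and 6909.1 after U0126. The changes were -1.07, -0.78 and -0.21 (pooled -0.69 ± 0.10, adjusted p = 0.0109; F test adjusted p = 0.00237), and SB203580 was lower than U0126 by 0.85 (95% interval -1.12 to -0.59). U0126 replicate 1 was above its control. The other probe set of Fdft1 was not called (-0.48 ± 0.14, adjusted p = 0.26) and gave -0.94, -0.52 and 0.03. The signals of Cyp51 were 634.4, 1895.8 and 2425.3 in the controls, 294.1, 913.4 and 917.6 after SB203580, 356.4, 973.9 and 1024.8 after SP600125, and 804.4, 1881.5 and 1555.1 after U0126. They gave -1.17, -1.0 and -0.10 (pooled -0.76 ± 0.14, adjusted p = 0.032; F test adjusted p = 0.00311). Another probe set of Cyp51 gave -1.26, -1.17 and -0.93 and was not called (pooled adjusted p = 0.272), so the probe sets disagree on U0126. The Cyp51 call was kept in 3 of 12 omissions. Idi1, Sqle and Pmvk lay just outside the threshold (adjusted p = 0.0554, 0.0796 and 0.0818).

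The promoters of the even Nsdhl and the uneven Cyp51 are set side by side. RefSeq matched these 2 of the 3 called genes, Nsdhl at chrX:72918271-72918570 on the plus strand and Cyp51 at chr5:4104648-4104947 on the minus strand. Capitals again mark CCAAT boxes on either strand.
Nsdhl: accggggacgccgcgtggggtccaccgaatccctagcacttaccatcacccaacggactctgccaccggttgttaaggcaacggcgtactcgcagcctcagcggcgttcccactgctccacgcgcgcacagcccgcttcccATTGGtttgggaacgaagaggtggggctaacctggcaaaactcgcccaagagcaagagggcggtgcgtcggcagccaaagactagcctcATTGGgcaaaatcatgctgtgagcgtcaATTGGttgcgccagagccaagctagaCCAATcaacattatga
Cyp51: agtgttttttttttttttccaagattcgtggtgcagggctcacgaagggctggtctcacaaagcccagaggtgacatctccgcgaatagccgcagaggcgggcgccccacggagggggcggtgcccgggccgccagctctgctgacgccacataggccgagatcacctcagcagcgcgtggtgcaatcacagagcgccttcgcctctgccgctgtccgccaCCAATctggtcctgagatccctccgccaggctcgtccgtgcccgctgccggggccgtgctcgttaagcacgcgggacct
Nsdhl held 4 CCAAT boxes and Cyp51 held 1. Neither window held the sterol element searched (TCACNCCAC, either strand), which 1.24% of mouse promoters held, and both held a GC box.

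**Figure D3:**
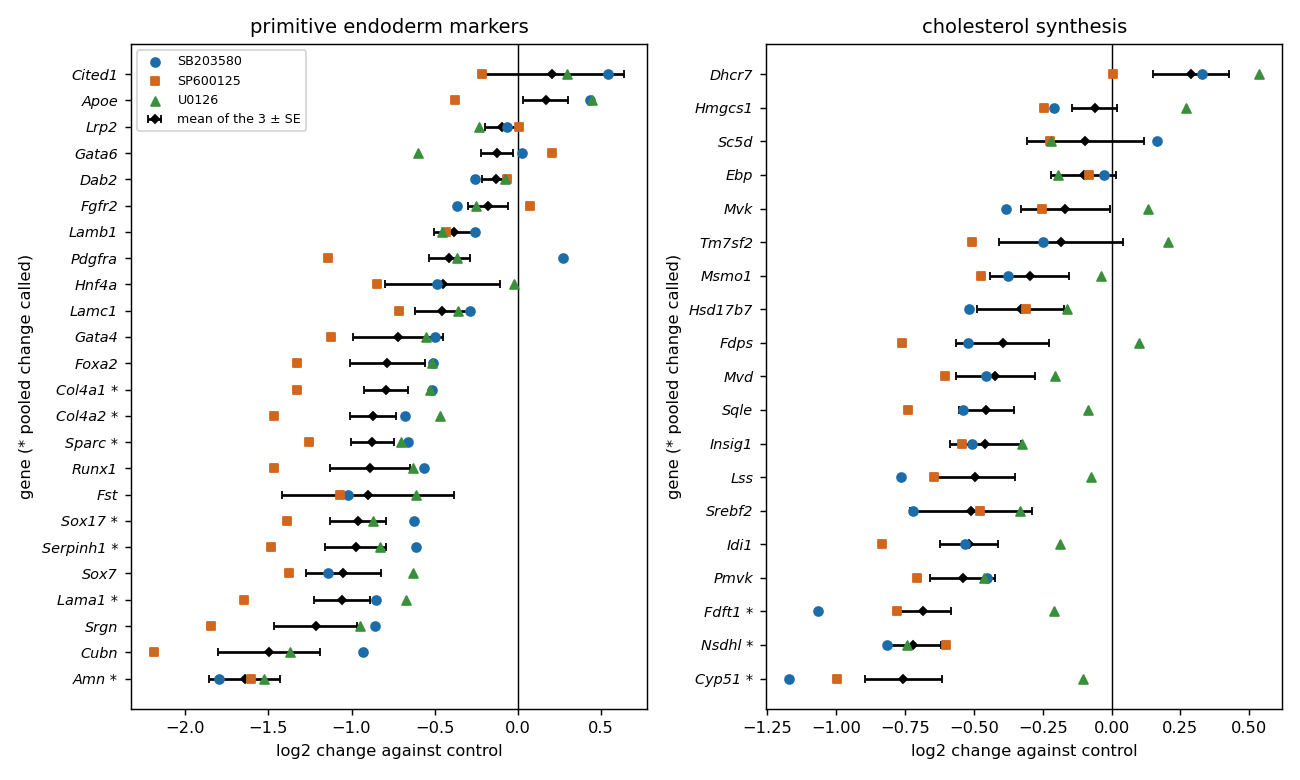
The horizontal axis is the log2 change against control and each row is a tested gene of the primitive endoderm list (left) or the cholesterol synthesis list (right), on its brightest probe set. Black diamonds are the pooled change with its standard error and asterisks mark called genes; SP600125 points lie left of the others for most primitive endoderm genes, and U0126 points lie nearest to 0 for most cholesterol genes.

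In several called genes 1 or 2 inhibitors carried the pooled change. Glipr1, a secreted or membrane protein of the CAP family, read 1395.9, 3103.5 and 2747.5 in the controls and 372.6, 802.4 and 925.3 after SB203580. It read 1285.2, 2870.1 and 2739.0 after SP600125 and 1642.7, 2604.6 and 2940.6 after U0126, close to the controls. The changes were -1.79, -0.08 and 0.03 (F test adjusted p = 6.61e-06), so the pooled value of -0.61 ± 0.11 (adjusted p = 0.0309) describes none of the 3, and it was -0.03 without SB203580. The gene's other probe set was not called and gave -0.06, -0.01 and 0.05, so the fall after SB203580 is a measurement of 1 probe set. Rfx4, a regulatory factor X transcription factor, gave -1.85, 0.08 and -1.03 (F test adjusted p = 0.000237), with 425.2, 245.8 and 311.2 after SB203580 against 2329.5, 710.4 and 989.9 in the controls.

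Klk7, a kallikrein serine protease, rose in steps. It read 182.1, 285.4 and 211.6 in the controls, 255.5, 294.4 and 270.4 after SB203580, 561.2, 803.2 and 582.3 after SP600125, and 1419.8, 1298.0 and 1140.2 after U0126. The groups of SP600125 and U0126 overlapped neither the controls nor each other within an array type. The changes were 0.28, 1.47 and 2.46 (F test adjusted p = 0.00013), and all 3 pairwise differences passed the test over all probe sets (adjusted p = 0.0112 for SB203580 against SP600125, 8.87e-05 for SB203580 against U0126 and 0.0178 for SP600125 against U0126). Tspan1, a tetraspanin, moved the other way, with -0.14, -0.63 and -1.99 (F test adjusted p = 0.000275). It was called on 1 of its 2 tested probe sets, both with a negative pooled change.

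Dusp4, a nuclear phosphatase of MAP kinases that ERK activity induces, read 4538.9, 1665.1 and 1366.5 in the controls, 3435.4, 764.7 and 1243.4 after SB203580, 1918.0, 484.3 and 569.1 after SP600125, and 1720.7, 321.1 and 209.1 after U0126. All treated samples were under their controls, and the depth of the fall differed: -0.55, -1.41 and -2.12 (pooled -1.36 ± 0.19, adjusted p = 0.00601; F test adjusted p = 0.00303). It was the called gene among 14 tested genes of ERK output and feedback, against 0.246% of all genes lower. Dusp6, another ERK-induced phosphatase, was not called (-0.99 ± 0.23, adjusted p = 0.125) and gave -0.45, -0.27 and -2.25.

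Foxq1, a forkhead transcription factor, kept its call in 11 of 12 omissions although it was uneven. It read 948.3, 1034.9 and 1113.9 in the controls, 260.5, 286.9 and 545.1 after SB203580, 150.3, 306.1 and 264.4 after SP600125, and 526.3, 608.6 and 907.6 after U0126. All treated samples were lower on this probe set, and U0126 was nearest to the controls (-1.54, -2.10 and -0.63; F test adjusted p = 0.00673). The gene's other probe set was not called (-0.76 ± 0.24, adjusted p = 0.321), and 1 treated sample was above the control mean of its array type there. Spic, an ETS factor of the PU.1 family, rose by 1.48 ± 0.23 (adjusted p = 0.0109), with 2.22, 1.18 and 1.04 and both of its probe sets called. Gm11544, a predicted gene, rose by 2.11 ± 0.41 (adjusted p = 0.0413), with 1.56, 3.74 and 1.02, from control signals of 127.2, 41.8 and 8.9. Vim, the intermediate filament of mesenchymal cells, fell by 1.17 ± 0.22 (adjusted p = 0.0309), with -0.36, -1.41 and -1.75. It was called on 1 of its 3 tested probe sets, all with a negative pooled change. The other uneven calls among the 12 rises were Eva1b (1.04, 0.55 and 1.58) and Slc45a4 (0.77, 0.52 and 0.22). Slc45a4 was called on 1 of its 3 tested probe sets, all with a positive pooled change.

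The remaining called genes were all lower and are named after their values were seen. They were Cers3, a ceramide synthase (-1.02), Pgam2, a phosphoglycerate mutase (-0.99), F2r, the thrombin receptor (-0.92), Flrt3 (-0.92), Ckap4 (-0.91), Phldb2 (-0.89), the annexin Anxa3 (-0.82), the coagulation inhibitor Tfpi (-0.68), Gas2l3 (-0.53) and Oxct1, which uses ketone bodies (-0.48). Ckap4, Phldb2 and Oxct1 passed the F test. The last genes inside the threshold were Anxa3 and Oxct1 (adjusted p = 0.0467), and the first outside were Ppp1r9a (0.0526) and Scd1 (0.0545).

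The other lists held few called genes or none. Of 35 lists, 26 had none. Trophectoderm markers had 1 called gene of 19 tested (Krt19, against 0.0872% of all genes higher) and a median of -0.03. The structural keratins Krt8 and Krt18 changed by 0.02 ± 0.07 and -0.01 ± 0.07 and Cdx2 by 0.00 ± 0.13, while Elf5, a factor of the trophoblast lineage, gave -0.88 ± 0.19 (adjusted p = 0.0748). None of the 18 tested inner cell mass and epiblast markers was called, and their median was 0.09. A positive change was found in 15 of them, and in 6539 of all 12614 genes. The medians were 0.09 for SB203580, -0.04 for SP600125 and 0.33 for U0126. The summed signal of the 19 with a probe set was 97597.5 and 101174.9 in the 430 2.0 controls. After treatment it was 99090.4 to 121676.3, highest after U0126, so the groups overlapped. Fgf4, the epiblast's growth factor, gave 0.22 ± 0.16 pooled from -0.33, -0.35 and 1.33 (F test adjusted p = 0.00016). Wnt-responsive genes had Dkk1 of 10 tested and BMP-responsive genes had Bmper of 11, against 0.246% of all genes lower. The Nodal and TGF-beta list had none of 9, with Lefty2, a Nodal target and antagonist, at -1.56 ± 0.38 (adjusted p = 0.142).

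Secreted proteases and inhibitors had Klk7 higher and Csta1 lower of 12, against 0.0872% of all genes higher and 0.246% lower. Sulphation genes had Papss2 lower of 13, and heat shock genes had Cryab lower of 15 with a median of 0.01, against the same 0.246%. No gene of the amino acid response (25 tested, 23 negative, median -0.19) or of the unfolded protein response (22 tested, 18 negative, median -0.19) was called, where 6075 of all 12614 genes were negative. For the 3 inhibitors the median of the amino acid response was -0.31, -0.38 and 0.04, and that of the unfolded protein response -0.20, -0.02 and -0.29. The cleavage stage list had no call among 6 tested genes, and its median of 0.68 came from 0.05, 2.42 and -0.35 for the 3 inhibitors, 4 of the 6 genes passing the F test against 4.34% of all genes. Without the SP600125 group the median was -0.05, and without the U0126 group it was 1.23. The mRNAs of the inhibited kinases were not called: Mapk14 (p38) gave 0.05 ± 0.11, Mapk8 and Mapk9 (JNK) -0.23 ± 0.20 and 0.00 ± 0.14, and Map2k1 and Map2k2 (MEK) 0.07 ± 0.10 and -0.08 ± 0.18. The inhibitors act on the proteins, so these levels do not check the treatments.

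**Figure D4:**
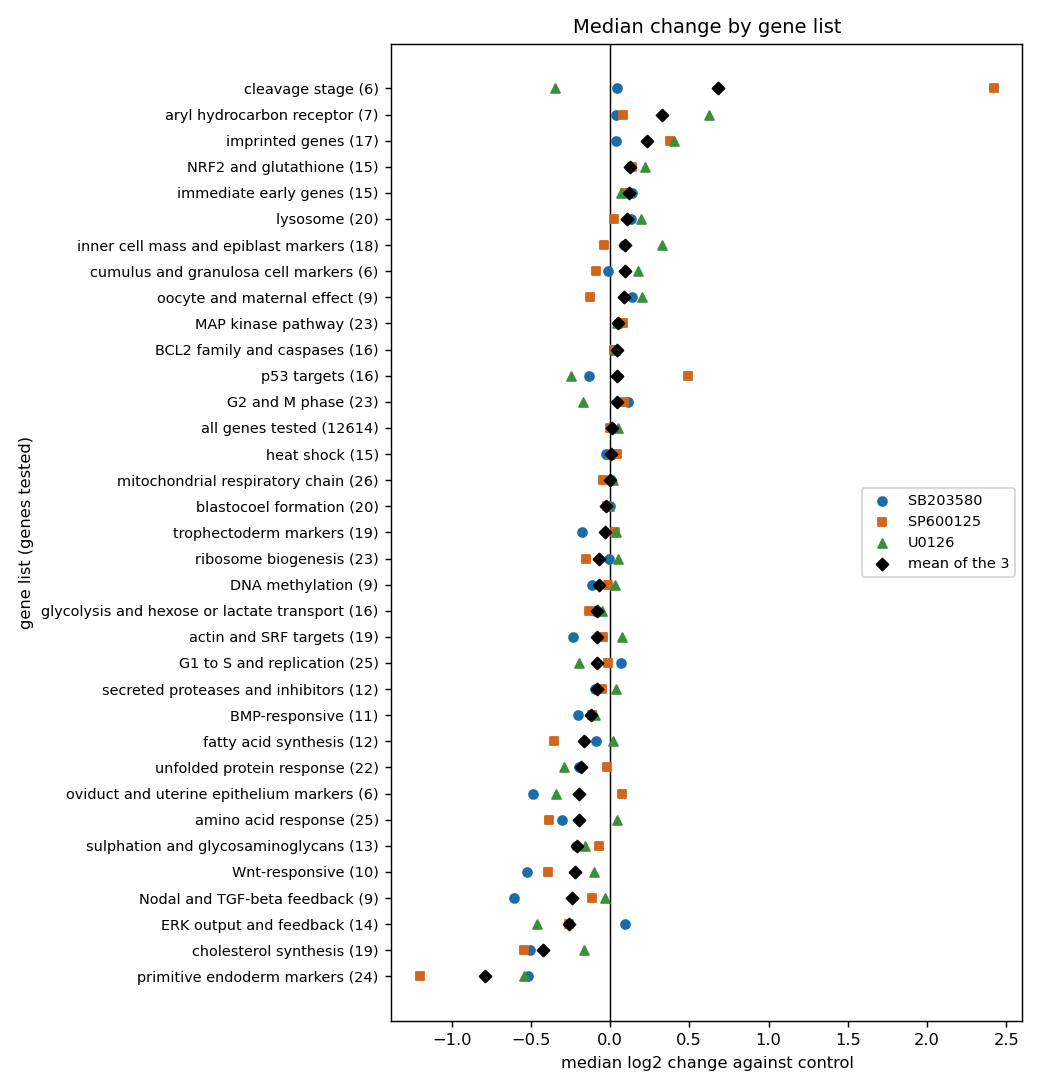
Each row is a gene list with its number of tested genes, and the horizontal axis is the median log2 change against control over those genes. Black diamonds are the pooled change and coloured points the 3 inhibitors; the primitive endoderm and cholesterol lists lie lowest, and the cleavage stage list is spread from -0.35 to 2.42.

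Markers of cells that embryo samples can carry over were also summed. The summed signal over 13 cumulus and granulosa cell genes with a probe set, 6 of them tested, was 662.4 and 821.4 in the 430 2.0 controls and 591.3 to 1176.8 in the treated samples. In replicate 1 it was 4159.6 in the control and 3819.2 to 4312.3 after treatment. For 13 oviduct and uterine epithelium genes, 6 tested, it was 1240.6 and 1306.3 in the controls and 888.0 to 1256.0 after treatment. In replicate 1 it was 2889.9 in the control and 1948.0 to 2134.1 after treatment, all of them below the control. For 9 blood and immune cell genes, 4 tested, it was 962.1 and 1079.2 in the controls and 707.1 to 2079.5 after treatment, with the highest values in the SP600125 samples, where Laptm5 read 1604.7 and 1576.3. In replicate 1 it was 760.0 in the control and 641.9 to 1053.5 after treatment. The blood marker Ptprc read 11.8 to 85.4 on all 430 2.0 arrays and was not tested. Fst and Foxa2 on these lists are also on the primitive endoderm list. None of the genes of the 3 lists was called, and their part in the results was not tested. The trophectoderm sum was 169991.6 and 180335.2 in the controls and 153963.5 to 184795.3 after treatment, so the groups overlapped. It shares Dab2 and Fgfr2 with the primitive endoderm sum.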

How the data were processed

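Expression was measured on Affymetrix mouse arrays in 12 blastocyst samples. Each deposited file gives 1 linear signal intensity per probe set. By the values themselves, the authors had scaled every array to a common mean of 500 after trimming 2% at both ends. The software that made them is not given in the sources used here. Both arrays of replicate 1 (430A and 430B) were joined by their labels. Genes were named from the platform annotation: of 45037 probe sets, 34945 named 1 gene, 932 several and 9160 none.

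A constant of 12.6 (the 20th percentile of the 430 2.0 values) was added before log2. The 27022 probe sets with a mean 430 2.0 signal of at least the 40th percentile (42.9) were analysed in R 4.3.3 (limma 3.58.1). The model held 4 groups and the array type as a block, with an intensity trend (residual degrees of freedom 7, median prior 9.7). The pooled change is the mean of the 3 inhibitor changes, and a moderated F test compared the inhibitors with each other. All tests were two-sided. Benjamini-Hochberg adjustment ran over all tested probe sets, with calls under 0.05, and errors are standard errors. The code was tested on simulated data. The number of arrays limits the precision.

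Named genes were the 12 largest called rises and falls with all 9 treated samples on 1 side, the 5 most and 5 least even called genes, up to 4 called members of each list and the target kinases, each on its brightest called probe set. Lists use each gene's brightest probe set. The samples, members and lists were chosen with earlier results of these data known, and the fatty acid oxidation and uroplakin lists after the pooled calls. Other constants, filters, scalings, array types, sample omissions and a replicate block were tried.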

Additional observations from a re-analysis of the deposited data

Results flagged for a closer look

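Among the genes named for their pooled change, 16 differed among the 3 inhibitors by limma's moderated F test, adjusted over all tested probe sets. The adjusted p was 6.61e-06 for Glipr1, 0.00013 for Klk7, 0.000237 for Rfx4 and 0.000275 for Tspan1. It was 0.00237 for Fdft1, 0.00303 for Dusp4, 0.00311 for Cyp51, 0.00584 for Col4a2 and 0.00673 for Foxq1. It was 0.0094 for Gm11544, 0.0131 for Slc45a4, 0.0134 for Vim, 0.0214 for Pdgfra, 0.0223 for Lama1, 0.0385 for Spic and 0.045 for Eva1b. A pooled change of these genes is an average over unequal changes. Among all 20 called genes that passed this test, the smallest of the 3 changes was that of U0126 in 11, SB203580 in 6 and SP600125 in 3. Groups of 3 samples were not tested for outliers.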

How the results depend on the processing

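The pooled test called 56 probe sets. It called 7 on the 430 2.0 arrays alone, 85 with a constant of 100, 3 with the treated samples as 1 group of 9 (1475 at an unadjusted p under 0.05), 32 without the SP600125 group and 125 without the U0126 group. Without the intensity trend limma called 0, with 1978 at an unadjusted p under 0.05. With 1 sample left out the count ranged from 0 to 67. Under 11 other settings, the replicate block among them, it was 46 to 75. Centring the arrays on their median gave 13 higher and 61 lower. The count past the F test among inhibitors was 830, and it was 422 on the 430 2.0 arrays alone, 101 without the intensity trend, 266 without the SP600125 group, 296 without the U0126 group and 521 to 825 with 1 sample left out. The causes were not tested; removing a group or sample also leaves fewer samples. Of the 34 named called genes none changed sign: with 1 sample left out 266 values kept their call and 142 lost it, and under the other settings 430 kept it and 143 lost it. The median of the primitive endoderm list stayed between -0.92 and -0.52 and that of the cholesterol list between -0.55 and -0.30. Samples with the same replicate number did not deviate together (correlations of 0.018 to 0.088 between groups over probe sets), so the numbers were not taken as pairs; with the replicate block 64 probe sets were called in the pooled test. All 9 treated samples share 3 controls, 1 of them on the replicate 1 arrays, so a deviation of the control samples and a change common to all inhibitors cannot be told apart.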

Other observations

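Genes called on the 430 2.0 arrays alone and not in the full set of samples were Birc6, an inhibitor of apoptosis protein (2.39), Cyp1a1, the xenobiotic-metabolising target of the aryl hydrocarbon receptor (2.57), and Hspa5, the endoplasmic reticulum chaperone (-0.68). Their adjusted p was 0.044 (limma), and they were named after their values were seen.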
